A study of Mus musculus with 16 samples.

Results

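Col12a1, Col14a1, Col16a1, Col15a1, Col18a1, Col8a1 and Col8a2, the mouse genes for fibril-associated and short-chain collagens, were followed through the pressure-overloaded heart. They were chosen by symbol, by the rule that the Ensembl identifier of a row in the normalized-count table maps to 1 of these names. All 7 were found among the 22372 protein-coding genes of the table, and all 7 passed the filter on low values (at least 10 normalized counts in at least 4 libraries), which left 13331 genes for testing. The samples were pieces of heart ventricle from male C57BL/6J mice that were 10 to 12 weeks old when the experiment began. Transverse aortic constriction (TAC), a band on the aortic arch that overloads the left ventricle, was compared with a sham operation without the band, and each was combined with vehicle (Veh) or THZ1, a covalent inhibitor of the transcriptional kinases CDK7, CDK12 and CDK13. THZ1 was injected intraperitoneally at 10 mg/kg b.i.d. from day 1 to day 60 after surgery. There were 4 libraries of each combination (Sham-Veh and Sham-THZ1 after sham surgery, TAC-Veh and TAC-THZ1 after constriction), and the drug was given systemically, not to 1 cell type.

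Collagens are trimers wound into a triple helix, which requires the smallest amino acid, glycine, as 1 residue in every 3 along the chain. The members fall into 3 structural classes. Fibril-associated collagens (Col12a1, Col14a1, Col16a1) have a helix broken by interruptions, which in Col12a1 and Col14a1 is short beside large globular domains. Col12a1 and Col14a1 sit on or near the surface of fibrils built by collagens I and III, where they link fibrils to each other and to proteoglycans. Multiplexins (Col15a1, Col18a1) have many interruptions of the helix and belong to basement membrane zones of vessels and muscle cells, and the C-terminal fragment of Col18a1 is endostatin. Short-chain collagens (Col8a1, Col8a2) have 1 compact helix, itself with breaks. They assemble into hexagonal lattices, best known from the Descemet membrane of the eye and from vessel walls. In the failing heart, collagen deposition is largely the work of fibroblasts that turn into matrix-producing myofibroblasts.

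The repeat can be read from the coding sequences, although its extent does not separate the classes. In the longest complete coding sequence of each gene (GENCODE on NCBIM37, the mm9 assembly), a run was counted where at least 5 codons of the form GGN, which encode glycine, followed each other at a spacing of 3 codons. Such runs covered 8.12% of the codons of Col12a1 and 13.9% of those of Col14a1. They covered 62.1% of the codons of Col16a1, spread over 21 runs, a share close to that of the short-chain pair and far from that of the other fibril-associated genes. For the multiplexins the shares were 25.0% (Col15a1, 11 runs) and 28.6% (Col18a1, 14 runs). Col8a1 and Col8a2 had 58.9% and 63.5% of their codons in runs, with 9 runs each. Their longest runs, of 60 and 59 triplets, were the longest among the 7 genes. The first 54 bases of the longest run are shown for the short-chain pair and for the large fibril-associated pair, since these 4 sequences show the repeat that makes each a collagen; the GGN codons are in capitals.
Col8a1, codons 355 to 372: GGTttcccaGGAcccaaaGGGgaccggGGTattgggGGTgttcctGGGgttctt
Col8a2, codons 315 to 332: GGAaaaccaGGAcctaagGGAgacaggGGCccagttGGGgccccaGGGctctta
Col12a1, codons 2805 to 2822: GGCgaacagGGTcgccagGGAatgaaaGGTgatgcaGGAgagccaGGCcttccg
Col14a1, codons 1516 to 1533: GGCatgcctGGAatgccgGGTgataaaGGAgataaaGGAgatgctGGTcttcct

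On the mm9 assembly the genes lie on 5 chromosomes. Col12a1 is on the minus strand at chr9:79446798-79566638, Col14a1 on the plus strand at chr15:55139305-55352358, and Col18a1 on the minus strand at chr10:76514923-76629293. Col8a1 is on the minus strand at chr16:57624371-57754850. Chromosome 4 holds Col15a1 (chr4:47221033-47326039), Col8a2 (chr4:125964037-125991574) and Col16a1 (chr4:129725084-129776527), all on the plus strand. No member overlaps a gene on its own strand. Slc19a1 overlaps Col18a1 on the opposite strand, and the reads were counted by strand.

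The reads counted in protein-coding genes numbered 21.4 M to 35.8 M per library (M, mega; median 28.2 M). The lowest value of any member was Col8a2 in Sham-Veh replicate 4, which rested on 3 reads; over all 8 sham libraries this gene had 3 to 16 reads and Col12a1 28 to 41, so that their sham levels carry a large counting error. The libraries carried abundant cardiomyocyte transcripts: the summed level of 8 cardiomyocyte markers was at least 659978 normalized counts in every library. Mitochondrial transcripts took 33.2% to 44.7% of the reads.

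In sham hearts the members differed widely in level, which is compared between genes as normalized counts per kilobase of exon. Col15a1 stood highest at 438 ± 50.4 per kb in Sham-Veh (SD, n = 4), and Col8a1 was next at 171 ± 18.1. Col14a1 (55.5 ± 7.26), Col18a1 (46.9 ± 8.12) and Col16a1 (40.5 ± 3.55) formed a middle group in which neighbours overlapped. Col8a2 (2.47 ± 1.15) and Col12a1 (2.26 ± 0.20) were lowest and overlapped each other. Col15a1 alone made up 57.9% of the summed per-kb level of the 7 genes. The order was the same in Sham-THZ1 except that Col18a1 (51.4 ± 3.29) came before Col14a1 (46.6 ± 2.50), with overlapping ranges.

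TAC changed this order. In TAC-Veh, Col8a1 stood at 1543 ± 713 per kb and Col15a1 at 724 ± 264, with overlapping ranges. Col8a1 now made up 55.3% of the summed level and Col15a1 25.9%. Col8a2 (76.8 ± 39.2) and Col12a1 (74.4 ± 50.7) reached the range of Col18a1 (63.0 ± 17.8), a gene far above them in sham hearts. The sum over the 7 genes was 756 ± 74.0 per kb in Sham-Veh and 729.7 ± 59.8 in Sham-THZ1. It was 2792 ± 1094 in TAC-Veh, where single libraries ran from 1668 to 4293, and 674 ± 121 in TAC-THZ1. In TAC-THZ1, Col8a1 (260.2 ± 59.3) and Col15a1 (249 ± 40.1) held nearly equal shares of the sum, 38.6% and 37.0%. With the longest transcript in place of merged exons as the length, Col15a1 ranked above Col8a1 in TAC-THZ1. Other neighbours with overlapping ranges also changed places: Col12a1 ranked above Col8a2 in both sham groups and TAC-Veh. Col16a1 ranked above Col18a1 in Sham-Veh and above Col14a1 in Sham-THZ1 and TAC-Veh. Coding length kept the order, but Col8a1 then stood at 391 per kb in Sham-Veh and 3532 in TAC-Veh. Levels and shares therefore depend on the length used.

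**Figure D1:**
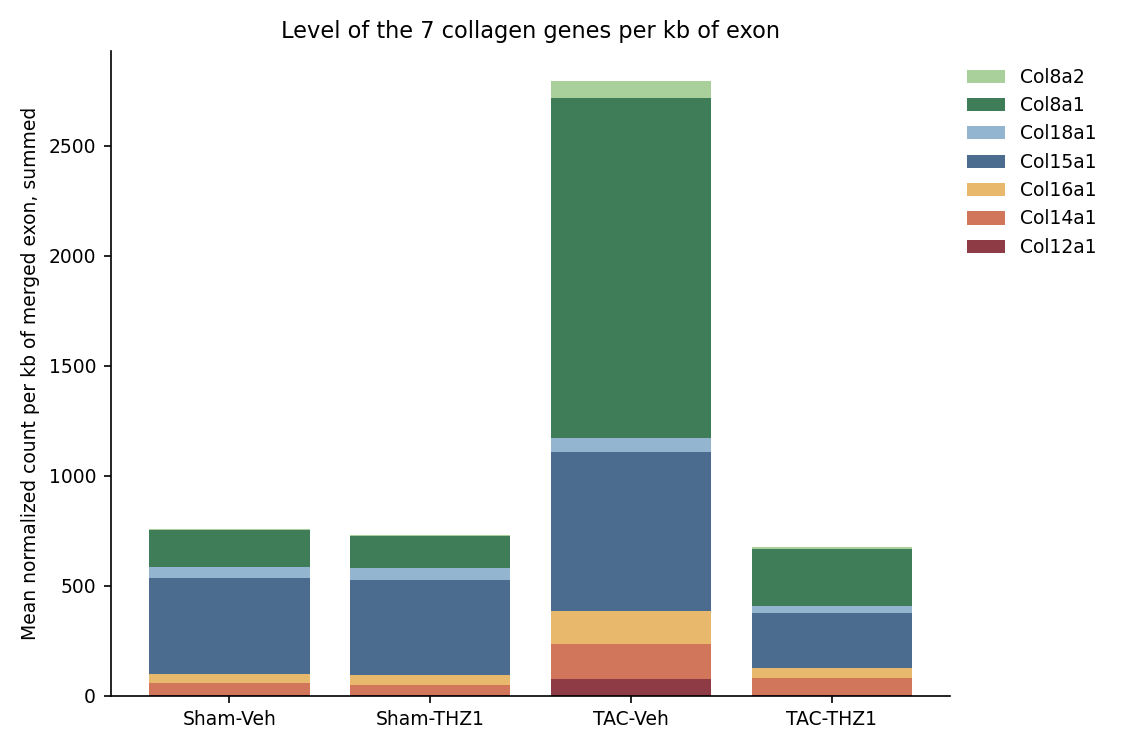
Mean normalized count per kilobase of merged exon (vertical axis, starting at 0) of each of the 7 genes, stacked for the 4 groups (n = 4 libraries each); the height of a bar is the sum over the genes. The sum is 756 for Sham-Veh, 729.7 for Sham-THZ1, 2792 with TAC-Veh and 674 with TAC-THZ1, and Col8a1 takes 22.6% of it in Sham-Veh and 55.3% in TAC-Veh.

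TAC-Veh set against Sham-Veh asks which of these collagens respond to pressure overload without drug. Of the 7 genes, 6 were higher in TAC-Veh at an adjusted p under 0.05 (limma on log2(normalized count + 1), Benjamini-Hochberg over all tested genes), while 21.4% of all 13331 tested genes were called higher. Differences below are on this log2 scale with their SE, and they understate the change of genes near the floor. The SE pools the spread of all 4 groups, so a gene has the same SE in each pairwise comparison. The members split into a steep group (Col8a2, Col12a1, Col8a1), a moderate group (Col16a1, Col14a1) and the multiplexins, whose differences were small. With the additional requirement of a log2 difference of at least 1, the limit that the study used, 5 members were called, against 4.64% of tested genes.

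Col12a1, which coats fibrils in tendon and other tissues under load, was close to silent in sham hearts. Its normalized counts were 37.1, 32.9, 30.9 and 36.8 in Sham-Veh replicates 1 to 4 and 1449.6, 2069, 386 and 627 in TAC-Veh. The lowest TAC-Veh library was above every Sham-Veh library by roughly an order of magnitude, yet the TAC-Veh libraries also differed among themselves, with the highest 5.36 times the lowest. The difference was 4.71 ± 0.41 (adjusted p 5.07e-07), the 17th highest log2 difference of all tested genes.

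Col8a2 and its partner chain Col8a1 also rose steeply, from very different starting levels. Col8a2 had 14.9, 12.8, 13.3 and 3.45 normalized counts in Sham-Veh and 453, 529.8, 154 and 244 in TAC-Veh. Its groups did not overlap, and the difference was 4.83 ± 0.48 (adjusted p 1.58e-06). Col8a1 had 1009, 816, 815 and 847 in Sham-Veh and 7516, 13086, 4790.0 and 6137 in TAC-Veh. The groups were again far apart, with a difference of 3.08 ± 0.22 (adjusted p 1.05e-07). The rise of Col8a1 put it at the top of the order per kb given above.

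Of the moderate group, Col16a1, a fibril-associated chain with a long but much interrupted helix, read 296, 273, 240.5 and 285 in Sham-Veh and 1019, 1632, 601 and 833 in TAC-Veh. Col14a1, a relative of Col12a1 that binds decorin, read 453, 353, 407 and 344 in Sham-Veh and 998, 1658, 729 and 1101 in TAC-Veh. Neither gene had overlapping groups, which made 5 of 7 members that lay wholly above Sham-Veh, where 18.2% of tested genes did. The log2 differences were 1.81 ± 0.23 for Col16a1 (adjusted p 1.47e-05) and 1.47 ± 0.26 for Col14a1 (adjusted p 2.87e-04).

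The multiplexins moved least. Col15a1 read 2944, 2438, 2594 and 3139 in Sham-Veh and 3654, 5822, 2719 and 6179.8 in TAC-Veh. TAC-Veh replicate 3 fell inside the Sham-Veh range, and the difference of 0.65 ± 0.20 (adjusted p 0.0137) was no longer called without TAC-Veh replicate 2 (0.51, adjusted p 0.0530) or in a fit of only the groups compared (adjusted p 0.0516). Col18a1 read 379, 281, 279 and 378 in Sham-Veh and 324, 575, 347 and 523 in TAC-Veh. Its ranges overlapped, and the difference of 0.40 ± 0.17 did not pass (adjusted p 0.0611). Col18a1 did pass in edgeR and DESeq2 on whole reads (adjusted p 0.0396 and 0.0305), with weights per library (0.0321), and without Sham-Veh replicate 1 (0.0467) or 4 (0.0497) or TAC-Veh replicate 1 (0.0132) or 3 (0.0270).

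**Figure D2:**
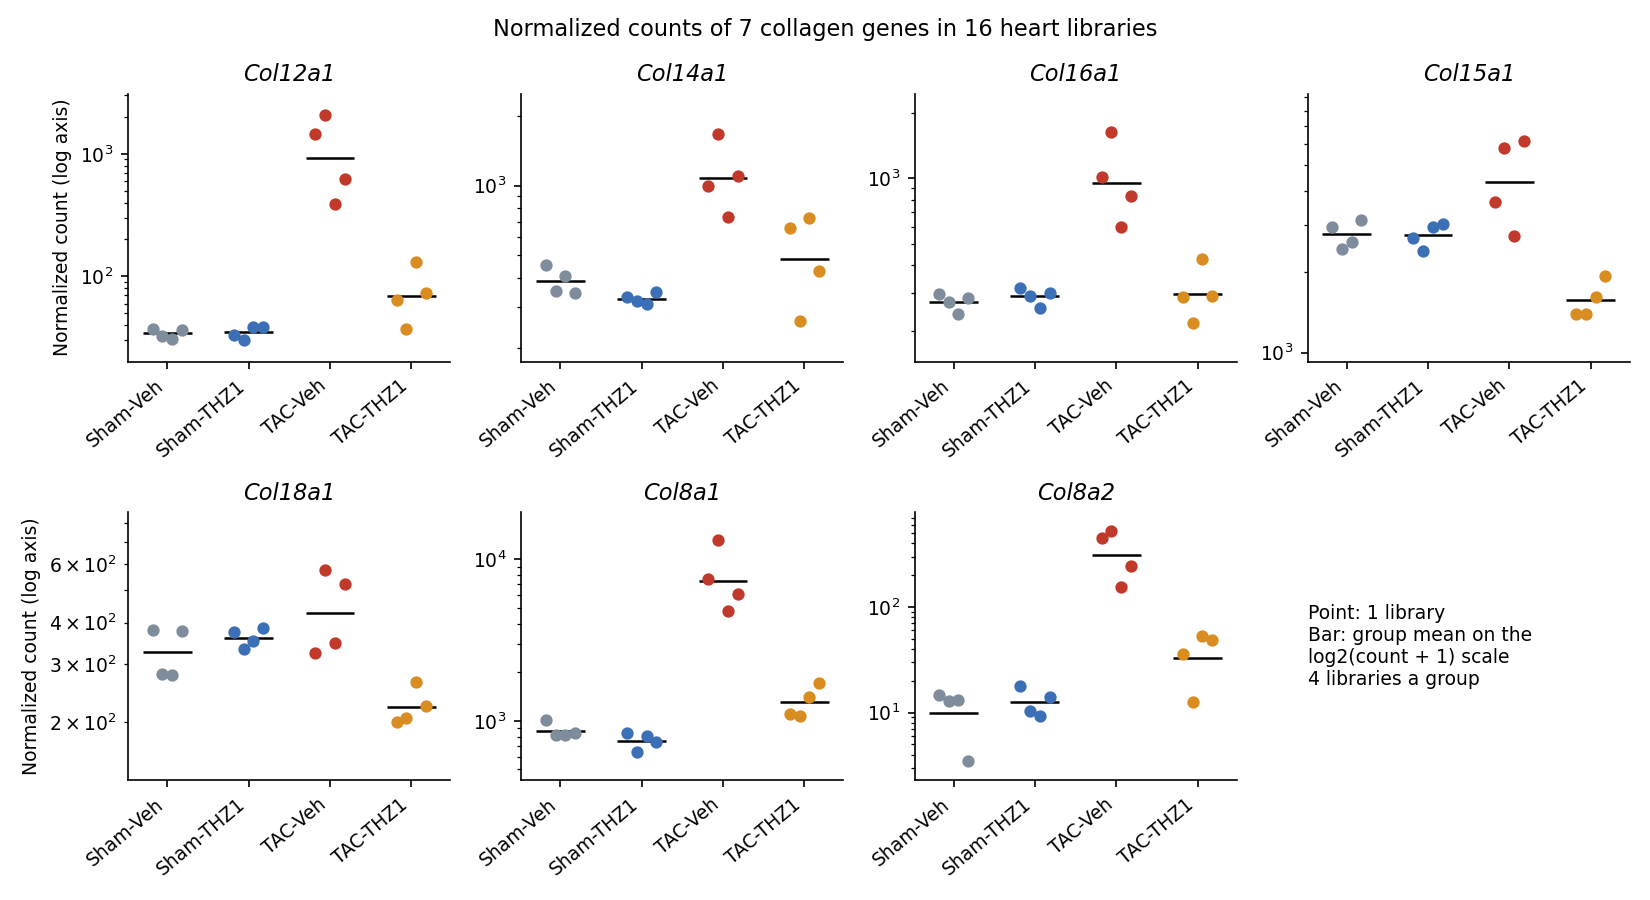
Normalized count (vertical log axis) of each of the 7 genes in all 16 libraries; a point is 1 library, a bar is the group mean on the log2(count + 1) scale, and there are 4 libraries a group. Col12a1, Col14a1, Col16a1, Col8a1 and Col8a2 lie higher in TAC-Veh than in Sham-Veh with no overlap, and all 7 genes lie lower in TAC-THZ1 than in TAC-Veh with no overlap.

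The extremes of TAC-Veh were mostly shared by the members. Replicate 2 was the highest TAC-Veh library for 6 of 7 genes, the exception being Col15a1, and replicate 3 the lowest for 6 of 7, the exception being Col18a1. How often these libraries were extreme over all tested genes was not counted, so this may not be particular to the members. The mitochondrial share of reads was 33.2% in replicate 2, 42.3% in replicate 3, 37.7% in replicate 1 and 34.5% in replicate 4, against 39.6% to 41.0% in Sham-Veh, and its part in the values was not tested. Markers of other cell types moved in the same comparison. Of 6 myofibroblast markers, 5 were higher in TAC-Veh, and the 6 summed to 3662 to 4824 normalized counts in Sham-Veh and 23535 to 72887 in TAC-Veh. Most of the TAC-Veh sum was Postn alone, whose mean was 1348 in Sham-Veh and 38153 in TAC-Veh. Acta2 was the marker not called (-0.07, adjusted p 0.788). Of 8 fibroblast markers, 5 were higher (sums 50802 to 57506 and 80531 to 93646), and of 8 macrophage markers, 5 (sums 8568 to 10588 and 13140 to 15942). Cardiomyocyte markers went the other way, with 4 of 8 lower, as did pericyte and smooth muscle markers, with 6 of 8 lower. Of all tested genes, 21.4% were called higher and 23.6% lower in this comparison. Epicardial and mesothelial markers were scarce, with sums of 135 to 219 in Sham-Veh and 146 to 300 in TAC-Veh for 6 genes, of which 4 could be tested and 2 were higher. Of 6 valve and chondrocyte markers, Acan, Chad, Hapln1 and Col2a1 were too low to test (group means under 9 normalized counts, Hapln1 at 0 in every TAC-Veh library), and Sox9 was higher (1.21, adjusted p 0.0127). The 8 endothelial markers went both ways, with 2 higher and 2 lower, and summed to 22489 to 24554 in Sham-Veh and 20785 to 25582 in TAC-Veh. The part of these cell types in the values of the members was not tested. In tissue pieces, a different number of cells of a type and a different amount of RNA per cell cannot be told apart.

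TAC-THZ1 set against TAC-Veh asks what the drug changed in constricted hearts. All 7 members were lower in TAC-THZ1, where 14.2% of tested genes were called lower. All 7 had groups that did not overlap, which held for 10.5% of tested genes in that direction. The steep responders had the largest differences, and both multiplexins, which TAC had moved little, were also lower. All 7 differences also passed the log2 limit of 0.89 that the study used, against 3.62% of tested genes.

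Col12a1 read 64.4, 36.9, 131 and 73.2 normalized counts in TAC-THZ1, so that its highest library stayed below the lowest of TAC-Veh (386). The difference was -3.72 ± 0.41 (adjusted p 4.25e-05), and only 3 of the 13331 tested genes had a lower one. Col8a2 read 36.0, 12.7, 53.7 and 48.5, a difference of -3.17 ± 0.48 (adjusted p 2.79e-04). Col8a1 read 1104, 1077, 1413 and 1721, a difference of -2.49 ± 0.22 (adjusted p 1.33e-05). For both short-chain genes every TAC-THZ1 library was below every TAC-Veh library, and for Col8a2 replicate 2 lay within the sham range.

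Col16a1 read 287, 218, 429 and 291 in TAC-THZ1, close to its sham values, and the difference from TAC-Veh was -1.68 ± 0.23 (adjusted p 1.46e-04). Col14a1 read 659.6, 262, 727 and 428. Its TAC-THZ1 replicate 3 came within a few counts of TAC-Veh replicate 3 (729), so the groups were apart by little, and the difference was -1.15 ± 0.26 (adjusted p 0.00399). In a fit of only the groups compared, the call for Col14a1 was lost (adjusted p 0.0511).

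Col15a1 read 1390.2, 1399, 1612 and 1933 in TAC-THZ1, and Col18a1 read 201, 206, 265 and 224. Every one of these libraries was below all sham libraries of the same gene as well as below all TAC-Veh libraries. The differences from TAC-Veh were -1.47 ± 0.20 for Col15a1 (adjusted p 1.39e-04) and -0.94 ± 0.17 for Col18a1 (adjusted p 8.07e-04).

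Beside these values, 4 of 6 myofibroblast markers were lower in TAC-THZ1 than in TAC-Veh, with sums of 4029 to 9760 normalized counts. Postn again made up most of the sum, with a mean of 4061 in TAC-THZ1, and Acta2 and Fap were not called. Of 8 fibroblast markers, 4 were lower (sums 58188 to 83487). Of 8 endothelial markers, 3 were lower and 1 higher, with sums of 19562 to 21175 in TAC-THZ1, from 20785 to 25582 in TAC-Veh and 22489 to 26253 over both sham groups. The 8 macrophage markers summed to 9536 to 19097, a range that held the TAC-Veh sums. Of the cardiomyocyte markers, 5 of 8 were higher, as were 3 of 8 pericyte and smooth muscle markers. Over all tested genes, 15.1% were called higher and 14.2% lower. The lists' part in the members' values was not tested. Within TAC-THZ1, also without a count over all tested genes, replicate 2 was lowest for 5 of 7 members and replicate 3 highest for 5 of 7. Their mitochondrial shares were 44.7% and 36.7%, and those of replicates 1 and 4 were 41.8% and 43.1%; the part of this share in the values was not tested.

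In sham hearts the drug was not seen to change the members. No member passed in Sham-THZ1 against Sham-Veh (0 of 7 by limma, edgeR and DESeq2, and none at an unadjusted p under 0.05), where 0.0675% of tested genes were called in either direction and 6.88% had an unadjusted p under 0.05. Col12a1 read 33.4, 30.2, 38.7 and 38.5 in Sham-THZ1, a difference of 0.03 ± 0.41 from Sham-Veh. Col14a1 (332, 317, 309 and 349) differed by -0.24 ± 0.26 and Col16a1 (315, 289, 256 and 299.9) by 0.08 ± 0.23. Col15a1 (2687, 2389, 2954 and 3023) differed by -0.01 ± 0.20, and Col18a1 (375, 334, 351 and 385) by 0.15 ± 0.17. Col8a1 (842, 645, 808 and 734) differed by -0.20 ± 0.22, and Col8a2 (17.9, 10.4, 9.35 and 14.2) by 0.32 ± 0.48. All 7 pairs of groups overlapped. For Col12a1, Col15a1 and Col8a2 the sign of this difference turned when single libraries were left out.

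Whether the drug effect differed between surgeries was tested by the interaction, (TAC-THZ1 minus TAC-Veh) minus (Sham-THZ1 minus Sham-Veh). It was negative and past the threshold for 6 of 7 members, where 5.62% of tested genes were called in that direction. The largest were Col12a1 at -3.75 ± 0.58 (adjusted p 0.00225), Col8a2 at -3.49 ± 0.68 (adjusted p 0.00661) and Col8a1 at -2.29 ± 0.32 (adjusted p 0.00194). Col16a1 followed at -1.77 ± 0.32 (adjusted p 0.00482), then Col15a1 at -1.46 ± 0.28 (adjusted p 0.00631) and Col18a1 at -1.09 ± 0.24 (adjusted p 0.0111). Col14a1 was the exception at -0.91 ± 0.37 (adjusted p 0.123), and it passed without TAC-Veh replicate 3 (-1.10, adjusted p 0.0441).

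**Figure D3:**
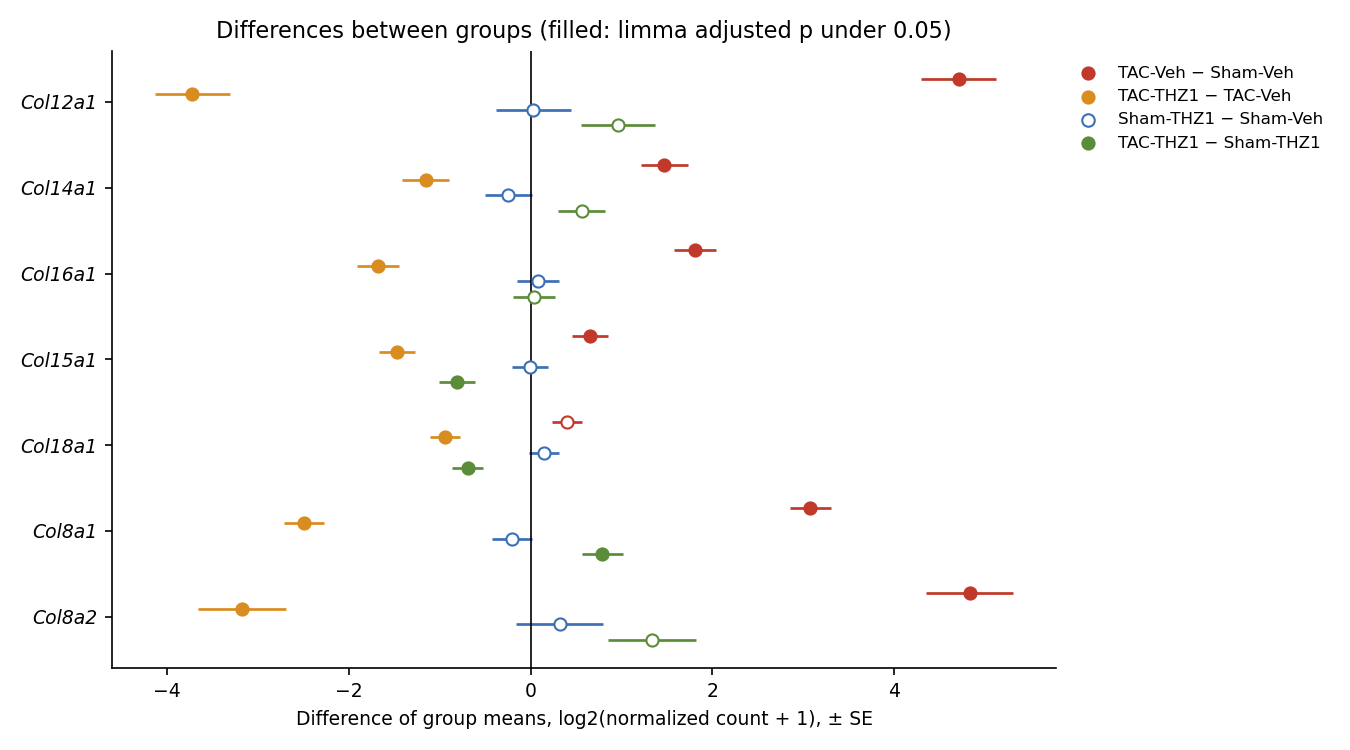
Difference of group means on the log2(normalized count + 1) scale (horizontal axis) for the 7 genes and 4 comparisons, with bars for ± SE; filled points passed an adjusted p under 0.05 in limma and open points did not (n = 4 libraries a group). Red points reach 4.83 for Col8a2 and orange points -3.72 for Col12a1, blue points (drug in sham hearts) are open for all 7 genes, and green points (TAC with drug against sham with drug) lie below 0 for Col15a1 and Col18a1 and above 0 for the others, by only 0.04 for Col16a1.

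The comparison of TAC-THZ1 with Sham-THZ1 shows where the constricted hearts stood relative to sham hearts on the same drug. It gave calls in both directions, and classes were not compared by a test. Both multiplexins were lower: Col15a1 by -0.81 ± 0.20 (adjusted p 0.00924) and Col18a1 by -0.69 ± 0.17 (adjusted p 0.00828), where 12.8% of tested genes were called lower. Both had groups that did not overlap, as 17.7% of tested genes had in that direction. Col8a1 was higher by 0.79 ± 0.22 (adjusted p 0.0186), where 11.4% were called higher, and its groups were apart, as those of 15.7% were in that direction. The call for Col8a1 was lost without Sham-THZ1 replicate 2 (adjusted p 0.0546) or TAC-THZ1 replicate 4 (adjusted p 0.0596). Col8a2 differed by 1.34 ± 0.48 and missed the threshold (adjusted p 0.0523). It passed in 7 of 22 alternatives, among them edgeR (adjusted p 0.0370), DESeq2 (0.0175), and the fit without TAC-THZ1 replicate 2 (0.0113). Col12a1 (0.96 ± 0.41, adjusted p 0.0976) and Col14a1 (0.56 ± 0.26, adjusted p 0.125) were not called. Col12a1 passed in 3 of 22 alternatives and Col14a1 in 2 of 22, for both genes including the fit without TAC-THZ1 replicate 2 (adjusted p 0.0371 and 0.0116). Col16a1 differed by 0.04 ± 0.23 (adjusted p 0.919), and its sign turned with library weights.

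Apart from the 0.5 added to each count, ratios within a library do not depend on library scaling. For 3 pairs they were compared on the log2 scale with an exact two-sided permutation test. The smallest p that 4 against 4 libraries can give in it is 0.0286, and Benjamini-Hochberg adjustment was over 12 comparisons. Col12a1 over Col14a1 was -3.47 ± 0.22 in Sham-Veh (SD, n = 4) and -0.22 ± 0.75 in TAC-Veh, and it was -2.79 ± 0.40 in TAC-THZ1. The TAC-Veh libraries were above all others in this ratio: within the fibril-associated pair, Col12a1 gained on Col14a1. These are ratios of counts and not of levels per length. The exact permutation p was 0.0286 for TAC-Veh against Sham-Veh and for TAC-THZ1 against TAC-Veh (0.114 adjusted). Col8a1 over Col8a2 was 6.40 ± 0.90 in Sham-Veh and 4.57 ± 0.38 in TAC-Veh, with the same exact permutation p (0.0286, 0.114 adjusted), and 5.28 ± 0.74 in TAC-THZ1. Sham-Veh replicate 4, where Col8a2 rested on 3 reads, stood highest in this ratio at 7.75. The difference between TAC-Veh and Sham-Veh was -1.83, but -1.38 without that library and -1.29 with 5 added to each count. Col15a1 over Col18a1 was 3.09 ± 0.11 in Sham-Veh, against 3.34 ± 0.26 after TAC with vehicle and 2.81 ± 0.21 after TAC with THZ1. Its widest difference, -0.53 between TAC-THZ1 and TAC-Veh, had an exact permutation p of 0.0571 (0.171 adjusted). None of the 12 comparisons passed after adjustment. With a smallest exact permutation p of 0.0286 this could hardly be otherwise, since comparisons whose groups did not overlap still had 0.114 adjusted. The lack of calls therefore says little about the ratios.

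**Figure D4:**
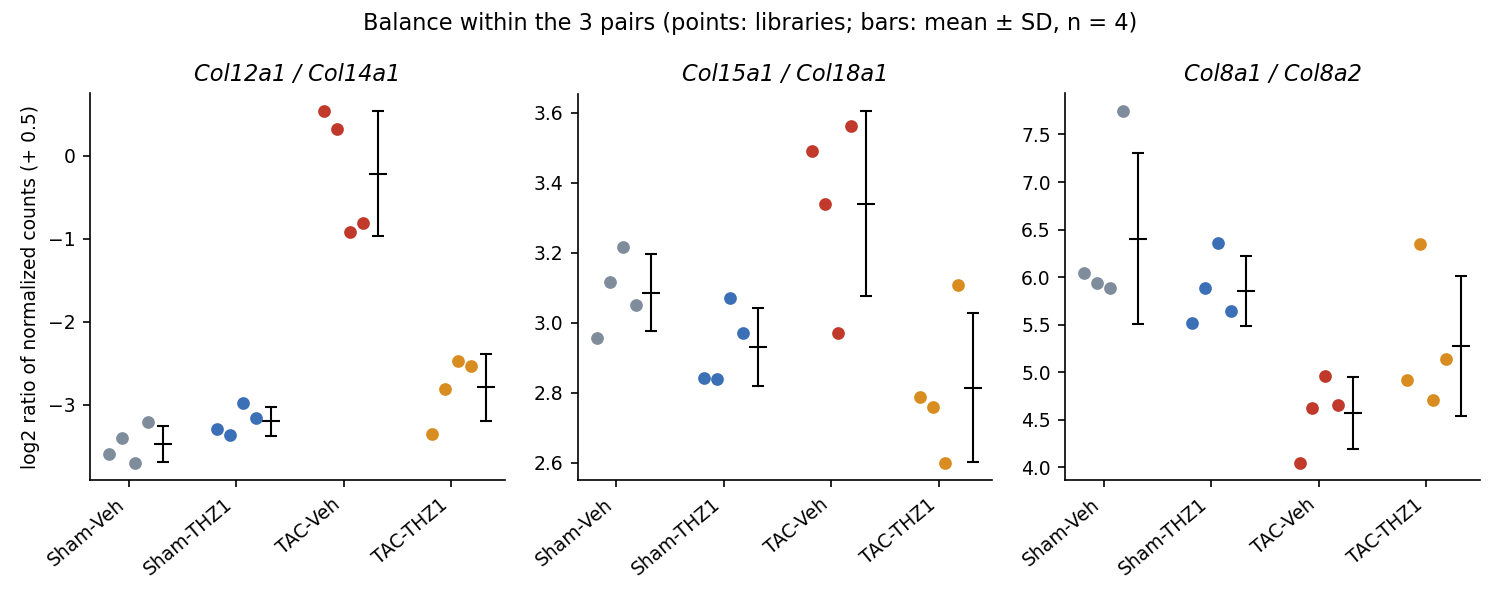
log2 ratio of normalized counts (vertical axis, 0.5 added to each count) within each library for 3 pairs of genes; points are libraries, and the cross bar and whiskers are the mean ± SD of 4 libraries. Col12a1 over Col14a1 averages -3.47 in Sham-Veh and -0.22 in TAC-Veh, Col8a1 over Col8a2 averages 6.40 and 4.57, and the Col15a1 over Col18a1 means stay between 2.81 and 3.34 over the 4 groups.

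Patterns were also compared gene by gene. The measure was the mean absolute difference, over the 16 libraries, of log2 values centred on each gene's Sham-Veh mean, so that a low value means a like pattern. Among the members, Col15a1 and Col18a1 were the closest pair (0.21), then Col14a1 and Col16a1 (0.29), then Col12a1 and Col8a2 (0.51). The chains of 1 class were not always closest: Col12a1 and Col14a1 differed by 1.09 and Col8a1 and Col8a2 by 0.99. Over the 10310 genes that averaged 100 normalized counts or more, the gene most like Col12a1 was Postn (0.27), which encodes periostin, a matricellular protein and myofibroblast marker. Next came Dio2 (0.33), the gene of an enzyme that activates thyroid hormone, and Cilp (0.39), the gene of a cartilage matrix protein. For Col8a2 the nearest were Cilp and Ltbp2 (0.39 each) and Postn (0.39), and for Col8a1 they were Itgbl1 (0.22), Adamtsl2 (0.25) and Serpinf1 (0.27).

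Col16a1 was most like Adamts2 (0.13), whose product trims the N-terminal propeptide of fibrillar procollagens, then A430110N23Rik (0.16) and Vcan (0.16), the gene for the proteoglycan versican. Col14a1 was most like Phlda3 (0.19), Sulf1 (0.20), which encodes a heparan sulfate sulfatase, and Pcolce (0.21), which encodes an enhancer of procollagen C-proteinase. Col15a1 was nearest to 3 other collagen genes, Col5a1 (0.16), Col6a2 (0.18) and Col4a1 (0.20), and Col18a1 to Dchs1 (0.11), Unc5b (0.12) and Myo1d (0.13). The median distance over all compared genes was 1.51 for Col12a1, 1.89 for Col8a2 and 0.38 for Col18a1, so that the distances of different members are on different footings. The 16 points share the same 4 groups and libraries, and no test was attached to these distances.

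The promoters of 5 members were found in a RefSeq table on GRCm38.p6. They are shown for the short-chain pair, whose genes rose together, and for Col15a1, which was most abundant in sham hearts. Each line holds the 250 bases before the annotated start, 5′ to 3′ on the strand of the gene, with GC boxes (GGGCGG, searched on both strands) in capitals. Col8a1 lies on the minus strand at chr16:57754738-57754987, Col8a2 on the plus strand at chr4:126286544-126286793 and Col15a1 on the plus strand at chr4:47207762-47208011.
Col8a1: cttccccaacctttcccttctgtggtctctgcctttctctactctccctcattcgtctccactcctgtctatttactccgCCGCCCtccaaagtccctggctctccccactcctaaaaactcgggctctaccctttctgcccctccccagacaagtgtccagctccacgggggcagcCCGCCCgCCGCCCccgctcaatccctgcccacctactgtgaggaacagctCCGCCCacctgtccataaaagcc
Col8a2: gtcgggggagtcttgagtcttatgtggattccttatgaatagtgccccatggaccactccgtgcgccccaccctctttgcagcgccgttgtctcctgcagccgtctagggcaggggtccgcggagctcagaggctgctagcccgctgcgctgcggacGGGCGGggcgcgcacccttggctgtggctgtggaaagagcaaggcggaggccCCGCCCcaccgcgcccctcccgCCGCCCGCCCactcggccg
Col15a1: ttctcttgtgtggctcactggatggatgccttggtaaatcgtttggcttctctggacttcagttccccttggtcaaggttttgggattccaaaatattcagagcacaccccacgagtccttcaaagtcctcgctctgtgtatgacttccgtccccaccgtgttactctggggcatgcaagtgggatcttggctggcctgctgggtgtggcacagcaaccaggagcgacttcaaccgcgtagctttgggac

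Col8a1 and Col8a2 each held 4 GC boxes in this window, of which 2 overlap in Col8a2, and Col15a1 held none. Col16a1 held 1, and Col18a1 held 3 at 1 of its 2 annotated starts and none at the other. A GC box was present in 32.7% of all 32851 promoters of the table. The AP-1 motif TGANTCA (6.75% of promoters) and the letters TATAAA (12.4%) were in none of the 6 windows, and the TEAD motif GGAATG (12.6%) was only at the other start of Col18a1, in 2 copies. Col8a2 had 24 CpG dinucleotides in the window, Col16a1 21, Col8a1 10 and Col15a1 8, while the starts of Col18a1 had 12 and 3, where the median of all promoters was 6.

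The rest of the collagen pathway gives the setting of these values. For the counts of calls below, 21.4% of all tested genes were higher and 23.6% lower with TAC. With the drug in TAC, 15.1% were higher and 14.2% lower. Of 8 fibrillar collagens tested (of 11 listed), 6 were higher and 1 lower in TAC-Veh than in Sham-Veh, and 5 were lower in TAC-THZ1 than in TAC-Veh. Their median difference was 0.88 for TAC and -1.36 for the drug in TAC, against -0.0030 and 0.015 for all tested genes. Col5a2, Col3a1 and Col1a2, components of the fibrils that Col12a1 and Col14a1 decorate, differed by 2.19, 1.59 and 1.36 with TAC and by -2.28, -2.01 and -1.49 with the drug, all called. Col11a2 was the 1 lower in TAC (-0.65).

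Of 20 other collagens tested (of 25), 9 were higher and 2 lower with TAC, and 1 was higher and 11 lower with the drug in TAC. Among them were other fibril-associated chains: Col9a2 differed by 3.76 and -3.71 and Col22a1 by 2.44 and -2.59 in these comparisons. Col9a2 averaged 89.4 normalized counts in TAC-Veh but 5.29 in Sham-Veh, 4.65 in Sham-THZ1 and 9.02 in TAC-THZ1. Without TAC-Veh it would not have passed the filter, so its differences are descriptive only. Emid2 (Col26a1) averaged 15.7 in TAC-Veh but 6.56 in Sham-Veh, 4.59 in Sham-THZ1 and 6.20 in TAC-THZ1. Col9a2 and Emid2 are both among the 9 higher with TAC and the 11 lower with the drug, and for them these calls are descriptive only. Col4a3, a basement membrane chain, differed by 1.57 and -2.16. Col6a6 moved the other way, by -3.11 and 1.60, all of these called, and Col25a1 was lower with TAC (-1.14).

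Genes of procollagen biosynthesis and processing, most but not all of them for enzymes, followed: of 23 tested, 17 were higher and 3 lower with TAC, and 1 was higher and 18 lower with the drug. P4ha3, a prolyl hydroxylase subunit, differed by 3.62 and -2.49, Adamts2 by 1.62 and -1.46 and Leprel1, a prolyl 3-hydroxylase, by 1.62 and -1.21. P4ha3 averaged 30.8 normalized counts in TAC-Veh but 1.75 in Sham-Veh, 2.25 in Sham-THZ1 and 4.39 in TAC-THZ1. It passed the filter through TAC-Veh, the group where it is high, so its differences are descriptive only. The 17 higher with TAC and the 18 lower with the drug include it. Tll2 differed by -3.03 and 1.95, while Adamts14 and Adamts3 were lower with TAC (-0.85 and -0.80). Of 14 matrix partners of the members, 9 were higher and 2 lower with TAC, and 10 were lower with the drug. The proteoglycan genes Fmod and Bgn differed by 5.78 and 2.24 with TAC and by -3.34 and -1.46 with the drug, and Comp by 5.50 and -3.44. Tnxb (-0.63) and Hspg2 (-0.49) were lower with TAC.

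Of 8 collagen receptors tested (of 10), 4 were higher with TAC and 5 lower with the drug, including the integrin genes Itga11 (1.08 and -1.27) and Itgb1 (0.28 and -0.56) and the endocytic receptor gene Mrc2 (1.01 and -0.99). Of 11 matrix proteases tested (of 14), 8 were higher and 1 lower with TAC, and 1 was higher and 6 lower with the drug. Ctsk (1.71 and -1.46) and Mmp2 (1.36 and -1.32) were called in both comparisons, Mmp3 only with TAC (1.62), and Mmp13 was the 1 lower with TAC (-1.38). For the drug in sham hearts, the median differences of the 6 lists lay between -0.0012 and 0.076. The TAC and drug comparisons share the TAC-Veh libraries, so that their values are not independent of each other.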

How the data were processed

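Stranded mRNA libraries of 16 mouse ventricle samples were compared. The authors aligned single-end reads to mm9 with TopHat2 (version 2.1.1), assigned them to GENCODE genes by htseq-count on the reverse strand, and divided each library by a DESeq2 size factor from a run over all mouse samples. The deposited signal is this normalized count. Within a library the values were whole multiples of the worth of 1 read, and 100% came out whole (tolerance 0.001 reads), so totals and whole reads were recovered. The totals cover the counted reads of the table. The labels number the replicates without naming animals, so p-values measure the spread between these libraries, which may in part be technical.

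The 7 genes and all lists were chosen with earlier results of these data known. Values were tested as log2(normalized count + 1) with limma (version 3.58.1, trend) in 1 fit of 16 libraries with a mean per group, after requiring 10 normalized counts in 4 libraries, with Benjamini-Hochberg adjustment over 13331 genes and calls at 0.05. The scripts were tested on simulated data. edgeR (version 4.0.16, quasi-likelihood) and DESeq2 (version 1.42.0) on whole reads, other pseudocounts (0.5 and 5), filters, scalings, thresholds and weights, the replicate number as a block, and leaving out each library were alternatives. From each pathway list the genes named are up to 3 called in each direction for TAC-Veh against Sham-Veh with the largest absolute difference. The 3 genes nearest each member by distance are also named. Levels per kilobase use merged exons. Replicate labels gave no shared batch. Of 24 procollagen genes listed, 23 were matched in the table.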

Additional observations from a re-analysis of the deposited data

Results flagged for a closer look

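In Sham-Veh, the Col8a1 value of replicate 1 (1009 normalized counts, against 815 to 847 in the others) stood apart from its group: its gap to the nearest library, as a share of the group's range, was 0.837, above Dixon's critical value for 4 samples. Of 28 groups of 4 tested in this way it was the only one, and chance gives about 1.4. Without this library the Col8a1 comparisons with Sham-Veh kept their direction and calls.

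The drug effect was not the same after TAC as after sham surgery by the interaction test for 6 members, with log2 values of -3.75 for Col12a1, -3.49 for Col8a2, -2.29 for Col8a1, -1.77 for Col16a1, -1.46 for Col15a1 and -1.09 for Col18a1. For Col18a1 the call was lost at the stricter threshold of 0.01.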

How the results depend on the processing

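Among the counts of members called, the alternatives moved only the comparison of TAC-THZ1 with Sham-THZ1 beyond 1.5 times. It gave 3 calls, and 5 in a fit of only the groups compared, 5 with weights per library and 5 with DESeq2, while leaving out single libraries gave 2 to 6, the highest without TAC-THZ1 replicate 2. The cause was not tested. For TAC-Veh against Sham-Veh the count was 5 to 7, for TAC-THZ1 against TAC-Veh 6 to 7, for the interaction 5 to 7, and for Sham-THZ1 against Sham-Veh 0 throughout. Signs of the members' differences turned only where neither the reported fit nor an alternative made a call. With weights per library, Col15a1 in sham hearts became 0.0014 and Col16a1 in TAC-THZ1 against Sham-THZ1 became -0.0082. Leaving out single libraries gave -0.020 to 0.097 for Col12a1, -0.067 to 0.061 for Col15a1 and -0.11 to 0.50 for Col8a2 in sham hearts, and -0.14 to 0.19 for Col16a1 in TAC-THZ1 against Sham-THZ1. With the replicate number as a block, the counts of calls were 6, 7, 0, 3 and 6 in the order TAC, drug in TAC, drug in sham, TAC on drug and interaction, and no call of a member changed. The numbers were not taken to pair the libraries: deviations of libraries with the same number correlated at -0.43 to 0.16, above 0.1 in 2 of 24 pairs, and 5 of 16 libraries correlated best with their own number. Depth limits Col8a2 and Col12a1 in sham hearts, where the lowest libraries held 3 and 28 reads.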
